A study of Homo sapiens with 17 samples.

Results

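The microRNA clusters miR-106b-25 and miR-106a-363 are described here in K562, a human erythroleukemia cell line, as ratios of small RNA between cultures with and without an induced hairpin against Drosha. They are the paralogs of the miR-17-92 cluster: MIR106B, MIR93 and MIR25 on chromosome 7, and MIR106A, MIR18B, MIR20B, MIR19B2, MIR92A2 and MIR363 on the X chromosome. Members were taken by position, as all minus-strand alignments of 18 to 26 nt inside a hairpin's hg19 window widened by 5 nt on each side. That gave 9 hairpins of the 1562 that the RefSeq table in hand names. A total of 7 hairpins gave 15 of the 1078 testable stacks of the genome, a stack being at least 3 alignments that share a strand and a 5′ end and have a ratio above 0 in all 8 tables.

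All cultures carried the Drosha short hairpin RNA under control of doxycycline (Dox). Cells were kept with 1 µg/mL Dox for 3 d (2 libraries), 13 d (3 libraries) or 31 d (3 libraries), against parallel cultures with water for 3 d (2 libraries), 13 d (3 libraries) or 31 d (3 libraries), per the labels as independent biological replicates. One further library of the 17 was untreated and was not analysed here. Each of the 8 deposited tables joins the Dox and the water library of 1 day and replicate number, and its ratio is the value used. Neither labels nor tables state which library is the numerator. Only if it is the Dox library does a value below 1 stand for less RNA under Dox. The sources used here do not say whether the line is a single clone.

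Drosha, with its partner DGCR8, cuts hairpins out of primary microRNA transcripts in the nucleus, and Dicer then removes the loop to leave a strand from each arm, named 5p and 3p. Hairpins of a cluster leave the same primary transcript but are cut one by one, and the bases 2 to 8 of the mature strand, the seed, direct it to its targets. In GENCODE v29 (build GRCh38) MIR106B, MIR93 and MIR25 lie in MCM7, a gene of the replicative helicase, on its strand and outside its exons. The 6 hairpins of the X chromosome lie on the strand of the noncoding transcript AC002407.1 and overlap its exons. Both clusters belong to a family known for promoting proliferation and survival of blood and other cells: miR-106b-5p and miR-93-5p repress the cell cycle inhibitor CDKN1A, and miR-25-3p the death factor BCL2L11.

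The mature sequences show which members could be mistaken for one another in the tables and which share a seed. They are those of RefSeq (GRCh38.p14), written 5′ to 3′ with the seed in capitals. A group of 4 members shares the seed of miR-17-5p and miR-20a-5p of the miR-17-92 cluster, shown after them.
hsa-miR-106b-5p: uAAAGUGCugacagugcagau
hsa-miR-93-5p: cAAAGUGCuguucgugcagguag
hsa-miR-106a-5p: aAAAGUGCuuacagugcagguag
hsa-miR-20b-5p: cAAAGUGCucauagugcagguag
hsa-miR-17-5p: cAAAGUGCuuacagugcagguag
hsa-miR-20a-5p: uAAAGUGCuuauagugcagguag
Counted from 1 at the 5′ end, with the miR-17-5p base written first, miR-106a-5p differs from miR-17-5p at 1 position only, C1A. With the miR-20a-5p base first, miR-20b-5p differs from it by U1C and U10C.

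A second seed group holds miR-25-3p, miR-92a-3p and miR-363-3p.
hsa-miR-25-3p: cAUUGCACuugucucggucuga
hsa-miR-92a-3p: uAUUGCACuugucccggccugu
hsa-miR-363-3p: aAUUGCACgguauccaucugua
With the miR-92a-3p base first, miR-25-3p differs from it by U1C, C14U, C18U and U22A. The seeds of miR-19b-3p and of miR-18b-5p are each found in 1 member, and miR-18b-5p is shown beside its paralog miR-18a-5p. The opposite arms have seeds of their own and are not shown.
hsa-miR-19b-3p: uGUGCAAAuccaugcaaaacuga
hsa-miR-18b-5p: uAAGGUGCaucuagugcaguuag
hsa-miR-18a-5p: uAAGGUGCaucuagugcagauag
The only difference of that pair, with the miR-18a-5p base first, is A20U. The mature miR-19b-3p and miR-92a-3p each occur in 2 RefSeq hairpins, MIR19B2 and MIR19B1, and MIR92A2 and MIR92A1.

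The tables were shifted against each other. The median log2 ratio of all stacks was 0.70 and 1.67 in the 3 d tables, 0.53, -0.23 and -1.24 in the 13 d tables, and -0.11, -1.26 and -0.72 in the 31 d tables. Results that were called are therefore also given relative to the median stack of their table. Tables of 13 and 31 d resembled each other over the 1078 stacks (Pearson r of 0.50 to 0.85 within and between these days), whereas r between a 3 d and a later table was -0.26 to 0.12. The stack with the highest mean log2 ratio of all lay on the plus strand of chromosome 5, at hg19 positions 31511242 to 31511265, with 10.45 on average over the 8 tables and 7.31 in the lowest. DROSHA itself lies on that chromosome; the stack was not assigned to a gene, because the annotation in hand is of another build. The hairpins taken here as erythroid were MIR451A, MIR144, MIR486 and MIR210, and whether each is specific to erythroid cells was not tested. MIR451A was listed with 29 to 49 alignments in a table, MIR144 with 19 to 38, MIR486 with 30 to 40 and MIR210 with 35 to 51. Of hairpins of other lineages, MIR122 of hepatocytes was listed with 4 to 17, MIR142 of blood cells in general with 34 to 77 and MIR223 of myeloid cells with 41 to 59. Depth per library is not given here, since the value columns without a library name were not used.

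In the miR-106b-25 cluster every stack had ratios below 1 in all 6 tables of 13 and 31 d, and MIR25 had the lowest means. The limma mean log2 ratio at 13 d was -1.89 for MIR106B-5p, -1.54 for MIR93-5p and -3.16 for MIR25-3p. The 31 d means were -1.96 for MIR106B-5p, -1.69 for MIR93-5p and -3.68 for MIR25-3p. At 3 d all 9 stacks of the cluster averaged above 0. In the miR-106a-363 cluster MIR19B2-3p was called at 13 and 31 d and MIR92A2-3p at 3 and 13 d, while MIR106A-5p and MIR20B-5p were called at no day.

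Counted over both clusters, 7 of the 15 stacks were called above a ratio of 1 at 3 d and 0 below it (limma, Benjamini-Hochberg adjusted p below 0.05 over all stacks), where 22.5% of all 1078 stacks were called above and 3.8% below. At 13 d 0 members were called above and 9 below, against 12.4% of all stacks above and 29% below. At 31 d 0 members were again called above and 9 below, against 8.26% of all stacks above and 27.7% below. For the 15 stacks the median of the means was 1.93 (3 d), -1.74 (13 d) and -1.69 (31 d), against 1.20, -0.20 and -0.71 for all stacks. Relative to the median stack of each table, 0 of the 15 were called at 3 d, where 5.57% of all stacks were called above and 19.6% below. On that scale 10 were called below at 13 d and 0 above (28.9% of all stacks below, 21.7% above), and 7 below at 31 d and 0 above (21.6% below, 20.4% above). The 3 d count went to 0 without replicate 3 and to 11 without replicate 1 of that day, and to 3 without replicate 3 of 31 d. The count was 2 at 13 d without replicate 3 of that day, and 3 at 31 d without replicate 2. Shares of all stacks are not given for fits with a table left out.

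**Figure D1:**
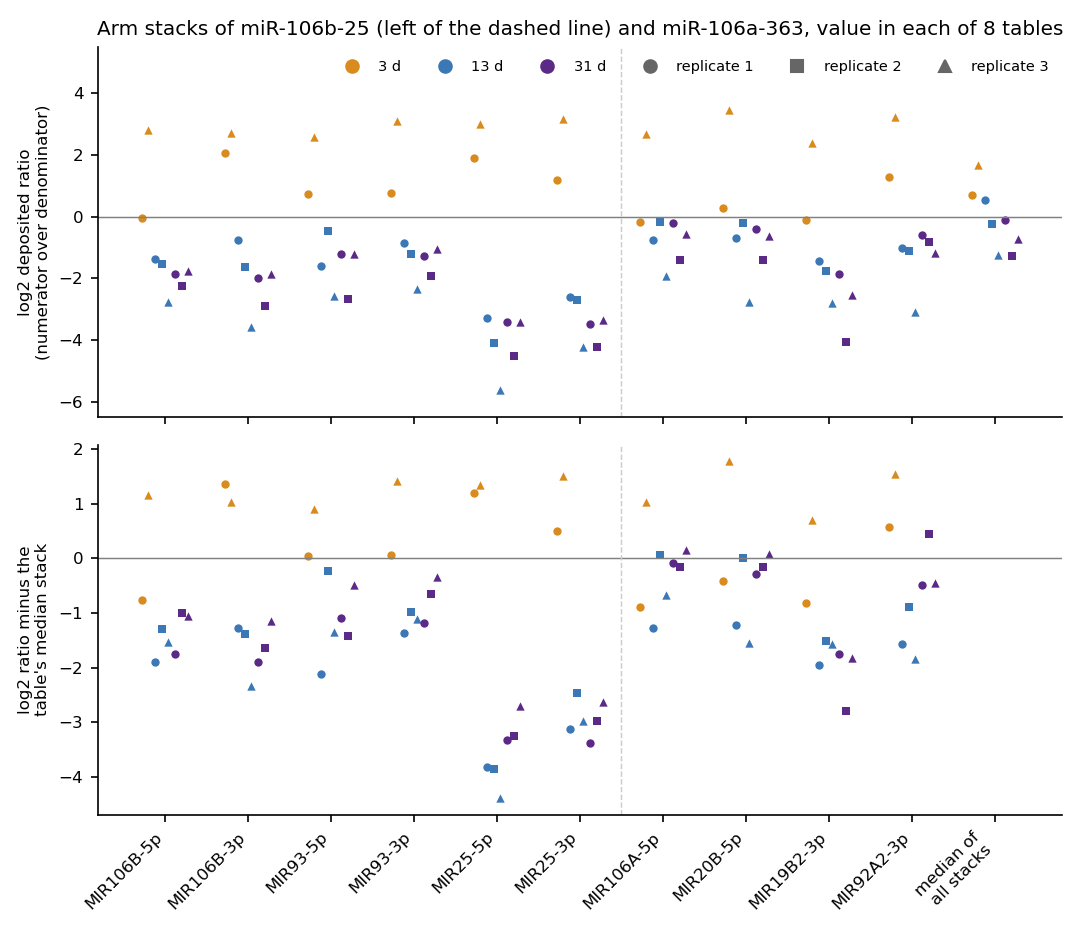
Each point is the log2 ratio of 1 arm stack in 1 of the 8 tables (above: as deposited, with the median of all stacks at the right; below: after subtracting the table's median stack), coloured by day and shaped by replicate number. Both MIR25 arms lie at or below -2.59 in the 6 tables of 13 and 31 d as deposited, and MIR106A-5p lies between -1.91 and -0.18 there.

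MIR106B is the first hairpin of its cluster, at hg19 chromosome 7, 99691616 to 99691697, and its 5p strand is the miR-17-like one. MIR106B-5p had log2 ratios of -0.05 and 2.83 in the 3 d tables, -1.38, -1.53 and -2.77 in the 13 d tables, and -1.86, -2.25 and -1.77 in the 31 d tables. All 6 later values lay below the lower 3 d value. The means were 1.39 ± 0.75 (limma SE, 2 pairs; adjusted p = 0.144), -1.89 ± 0.61 (3 pairs; 0.0171) and -1.96 ± 0.61 (3 pairs; 0.0162), that is a ratio 3.71-fold below 1 at 13 d and 3.89-fold at 31 d. Relative to the median stack they were 0.20, -1.58 (adjusted p = 0.0128) and -1.26 (0.0429).

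The 3p strand of MIR106B was also called below 1 at 13 and 31 d. MIR106B-3p had 2.06 and 2.71 in the 3 d tables, -0.75, -1.61 and -3.56 in the 13 d tables, and -2.00, -2.90 and -1.87 in the 31 d tables. Its means of -1.97 (13 d, limma adjusted p = 0.0124) and -2.26 (31 d, 0.00624) were called as deposited and relative to the median stack (0.00608 and 0.0113). At 3 d its mean of 2.39 was called only as deposited (0.0279, against 0.117 relative to the median stack). Further stacks that began 1 and 2 bases upstream had means of -1.91 and -1.88 at 13 d and -2.11 and -2.03 at 31 d. All 4 values of these 2 stacks were called, as deposited and relative to the median stack.

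MIR93, at chromosome 7, 99691391 to 99691470, carries the same seed on its 5p strand. MIR93-5p had 0.74 and 2.57 in the 3 d tables, -1.59, -0.47 and -2.58 in the 13 d tables, and -1.20, -2.68 and -1.20 in the 31 d tables. Its mean of -1.54 ± 0.61 at 13 d lay just inside the threshold (limma adjusted p = 0.0482), as did -1.69 ± 0.61 at 31 d (0.0357), and the 31 d call was lost relative to the median stack (-0.997, adjusted p = 0.105). A second MIR93-5p stack, which starts 1 base later, had means of -1.29 (13 d, limma adjusted p = 0.0983) and -1.68 (31 d, 0.0369), and the 31 d call was lost relative to the median stack (-0.98, adjusted p = 0.112). MIR93-3p had 0.77 and 3.09 in the 3 d tables, -0.84, -1.21 and -2.34 in the 13 d tables, and -1.28, -1.91 and -1.06 in the 31 d tables. Its means of -1.46 and -1.42 at the later days were just outside (limma adjusted p = 0.0541 and 0.0695), and the 13 d value passed relative to the median stack (0.0415).

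MIR25, at chromosome 7, 99691183 to 99691266, is the last hairpin of the cluster, and its 3p strand has the seed of miR-92a-3p. MIR25-3p had log2 ratios of 1.20 and 3.17 in the 3 d tables, -2.59, -2.69 and -4.22 in the 13 d tables, and -3.47, -4.24 and -3.34 in the 31 d tables. The lowest 3 d value and the highest later value were thus on opposite sides of 0 with a wide gap. Its means were 2.19 ± 0.72 (limma SE; adjusted p = 0.0353), -3.16 ± 0.59 (0.0003) and -3.68 ± 0.59 (0.000132), and the ratio was 8.96-fold below 1 at 13 d and 12.8-fold at 31 d. In the authors' deposited table the single alignment of the mature 22 nt had linear ratios of 2.00 and 5.73 in the 3 d tables, 0.167, 0.155 and 0.0538 in the 13 d tables, and 0.11, 0.0685 and 0.0991 in the 31 d tables.

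The opposite arm was low at the same days. MIR25-5p had 1.91 and 3.02 in the 3 d tables, -3.28, -4.08 and -5.62 in the 13 d tables, and -3.42, -4.50 and -3.41 in the 31 d tables. With means of -4.33 (13 d, limma adjusted p = 2.29e-05) and -3.78 (31 d, 0.000109) it ranked 16 and 25 from the lowest among the 1078 stacks, and MIR25-3p ranked 89 and 30. The stack holds only 3 alignments, and the mature length of 21 nt had no reads in the numerator in 2 tables. The calls of MIR25-5p and MIR25-3p at 13 and 31 d were kept under all alternatives in which the stack could be formed (18 for MIR25-5p, 20 for MIR25-3p); those at 3 d were lost relative to the median stack (adjusted p = 0.0806 and 0.199).

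Within the cluster MIR25-3p was set against its neighbours in each table. MIR25-3p minus MIR93-5p was 0.46 and 0.60 at 3 d and between -0.999 and -2.28 in the 6 later tables. MIR25-3p minus MIR106B-5p was 1.25 and 0.35 at 3 d and between -1.16 and -1.99 later. Both differences were thus above 0 in both 3 d tables and below 0 in all 6 others. Over all 8 tables they averaged -1.22 ± 1.16 (SD, n = 8; exact two-sided sign-flip permutation p = 0.0391, adjusted over 8 such tests 0.288) and -0.92 ± 1.12 (p = 0.0781, adjusted 0.288), neither past the threshold. Over the 6 tables of 13 and 31 d they averaged -1.81 ± 0.50 and -1.50 ± 0.30 (SD, n = 6). Each had an exact permutation p of 0.0313, the smallest that 6 tables can give, and 0.125 after adjustment over 8 tests. The planned test used all 8 tables. The restriction to 6 leaves out the 3 d tables, where both differences had the other sign, so its p is no separate support. MIR93-5p minus MIR106B-5p averaged 0.30 ± 0.55 over the 8 tables (exact permutation p = 0.18, adjusted 0.288) and was below 0 in 3 of them.

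The arms of a hairpin did not differ beyond the spread between tables. The 5p minus the 3p stack averaged -0.11 ± 0.91 for MIR106B (SD, n = 8; exact permutation p = 0.875), -0.20 ± 0.50 for MIR93 (p = 0.258) and -0.40 ± 0.73 for MIR25 (p = 0.156). For MIR25 the 5p arm was lower in 6 of 8 tables, by up to 1.40 in the third replicate of 13 d. The largest difference in a single table was that of MIR106B in replicate 1 of 3 d, at -2.11. These tests do not show that the arms are equal.

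Most hairpins of the miR-106a-363 cluster were listed more sparsely. MIR106A, at hg19 chromosome X, 133304228 to 133304308, had 10 to 22 alignments in a table, MIR20B (133303839 to 133303907) 4 to 7 and MIR92A2 (133303568 to 133303642) 26 to 29, against 36 to 44 for MIR106B. MIR106A-5p had -0.18 and 2.70 in the 3 d tables, -0.75, -0.18 and -1.91 in the 13 d tables, and -0.20, -1.42 and -0.56 in the 31 d tables. Its means of -0.95 at 13 d and -0.73 at 31 d were not called (limma adjusted p = 0.241 and 0.377), and it was above the median stack in 2 of the 6 later tables. Reads of miR-106a-5p and miR-17-5p differ by the first base alone, and in a second MIR106A stack that starts 1 base later 2 of 3 alignments have the same bases as MIR17. That second stack had means of -0.93 and -1.15 at 13 and 31 d and was not called (limma adjusted p = 0.276 and 0.178).

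MIR20B-5p had 0.28 and 3.45 in the 3 d tables, -0.70, -0.22 and -2.78 in the 13 d tables, and -0.39, -1.41 and -0.64 in the 31 d tables. The means of -1.23 and -0.81 at 13 and 31 d were not called (limma adjusted p = 0.149 and 0.348). Of the 6 later values 4 were below the median stack of their table. The paralogs of the miR-17-92 cluster that share the seed were not called at these days either: MIR17-5p averaged -0.67 and -0.87 and MIR20A-5p -0.72 and -0.65 at 13 and 31 d, with adjusted p of 0.324 to 0.47.

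MIR19B2-3p was the lowest stack of the X-chromosome cluster at both later days. The hairpin lies at 133303701 to 133303796, and the strand, miR-19b-3p, is identical in MIR19B1. It had log2 ratios of -0.10 and 2.38 in the 3 d tables, -1.43, -1.75 and -2.80 in the 13 d tables, and -1.85, -4.05 and -2.54 in the 31 d tables. Its means were -1.99 ± 0.63 (13 d, limma adjusted p = 0.0149) and -2.81 ± 0.63 (31 d, 0.00168), ratios 3.98-fold and 7.03-fold below 1. Relative to the median stack they were -1.68 (0.00817) and -2.12 (0.00278), and the 31 d call held under all 20 alternatives.

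MIR92A2-3p, the strand miR-92a-3p with the seed of miR-25-3p, had higher values than MIR25-3p in all 6 later tables, a difference that was not tested. It had 1.29 and 3.23 in the 3 d tables, -1.03, -1.12 and -3.08 in the 13 d tables, and -0.60, -0.81 and -1.17 in the 31 d tables. The mean of 2.26 at 3 d was called as deposited (limma adjusted p = 0.034; 0.184 relative to the median stack), as was -1.74 at 13 d (0.0242; 0.0157). At 31 d its mean of -0.86 was not called (adjusted p = 0.275) and was -0.16 relative to the median stack. A second stack, which starts 1 base later, had means of 2.08 (3 d, limma adjusted p = 0.0416), -1.36 (13 d, 0.0723) and -1.09 (31 d, 0.155), and the 3 d call was lost relative to the median stack (0.90, adjusted p = 0.261).

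**Figure D2:**
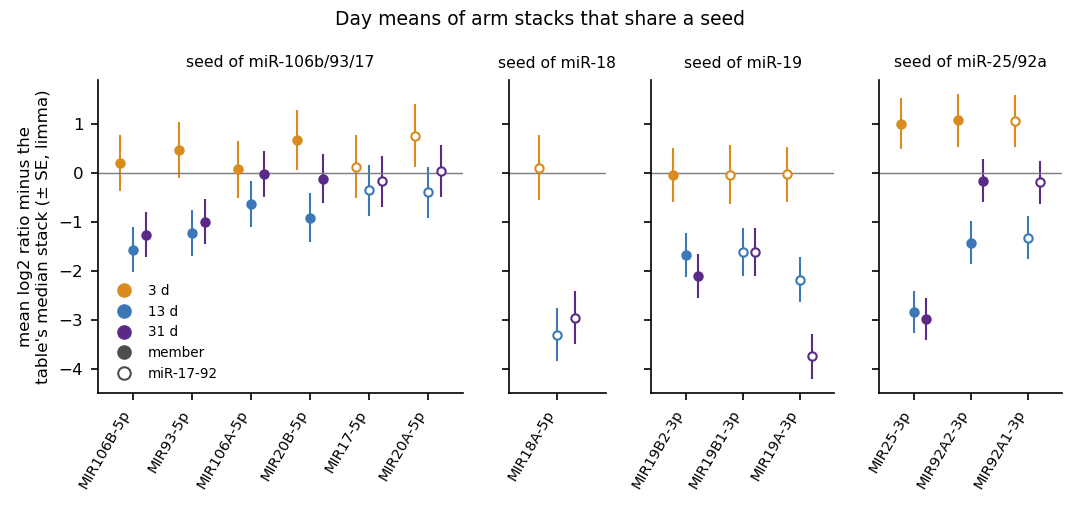
Points are limma means per day of log2 ratios relative to the table's median stack, with bars of 1 SE (2 pairs at 3 d, 3 pairs at 13 d and at 31 d), for arm stacks grouped by seed, filled for members and open for the miR-17-92 cluster. In the group of miR-25 and miR-92a, MIR25-3p stands at -2.85 and -2.99 at 13 and 31 d, and MIR92A2-3p at -1.43 and -0.16.

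MIR18B (133304071 to 133304141) and MIR363 (133303408 to 133303482) gave no stack. MIR18B was listed with 6 to 10 alignments in a table and none had a ratio above 0 in all 8. Its 19 nt alignment at the mature 5′ end of miR-18b-5p was at 0 in replicate 1 and at a log2 ratio of 4.60 in replicate 3 of 3 d, at 0.11, 0.32 and -2.30 at 13 d, and at -0.90, -2.75 and -2.42 at 31 d. The full 23 nt strand of miR-18b-5p was missing from replicate 1 of 13 d. Its ratio was 0 for 3 d replicate 1 and 13 d replicate 2. Where this strand was above 0, day 3 gave a log2 ratio of 4.54 and day 13 gave -4.69, each in replicate 3. Day 31 held -3.07, -5.25 and -3.49 for this length. For MIR363 the 22 nt alignment of mature miR-363-3p had a ratio above 0 in all tables. Its log2 ratios were 2.26 and 2.88 in the 3 d tables, -1.07, -2.18 and -1.22 in the 13 d tables, and -3.38, -2.78 and -1.56 in the 31 d tables. These are single alignments and were not tested.

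Some strands of the X-chromosome cluster were not listed at all. For MIR19B2-5p and MIR92A2-5p, the passenger strands that set these hairpins apart from their copies on chromosome 13, no alignment was listed in any table. The mature miR-19b-1-5p and miR-92a-1-5p of MIR19B1 and MIR92A1 were each listed in all 8 tables. MIR106A-3p had a single distinct alignment, listed in 2 tables, and its ratio was 0 in both. Of MIR106B-3p, in contrast, 27 to 31 alignments were listed in a table.

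Where a mature strand has a copy on each chromosome, no difference between the copies passed the test. MIR92A2-3p minus MIR92A1-3p averaged -0.02 ± 0.13 (SD, n = 8; exact permutation p = 0.602), and MIR19B2-3p minus MIR19B1-3p averaged -0.21 ± 0.35 (p = 0.109, adjusted 0.288). Alignments of the same offset and length whose bases are identical in both hairpins differed by a median of 0.10 on the log2 scale for miR-92a-3p (9 alignments in 8 tables) and 0.09 for miR-19b-3p (3 alignments). Single values with the same bases differed by up to 1.45 for miR-92a-3p and 0.36 for miR-19b-3p. Where the bases differ, the median was 0.19 for miR-92a-3p (8 alignments) and 0.37 for miR-19b-3p (2 alignments). Rules for reads that match both copies are not named in the labels or processing notes, so values of MIR19B2-3p and MIR92A2-3p cannot be told apart from those of the chromosome 13 copies.

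**Figure D3:**
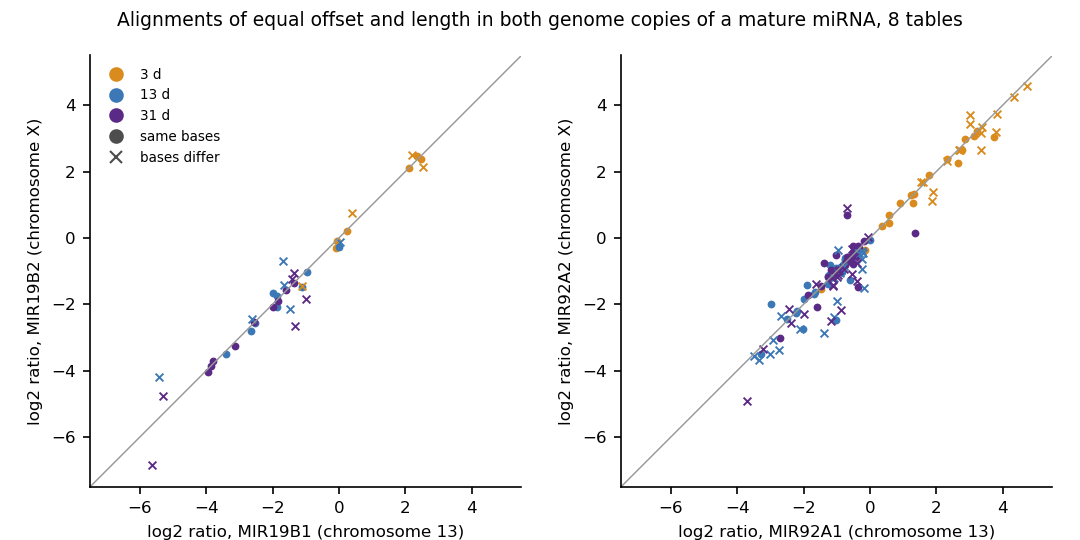
Each point is 1 alignment in 1 table, with the log2 ratio in the X-chromosome hairpin on the vertical axis and that of the chromosome 13 copy on the horizontal axis, coloured by day. Circles are alignments with the same bases in both hairpins and crosses those whose bases differ, and the grey line marks equality; circles lie a median of 0.09 (miR-19b-3p) and 0.10 (miR-92a-3p) from it.

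Most member stacks had lower ratios at the later days than at 3 d. At 13 d 13 of 15 stacks were lower than at 3 d and 0 higher (limma contrast, adjusted p below 0.05), where 37% of all stacks were lower and 5.38% higher. At 31 d 13 were lower and 0 higher, where 37.4% of all stacks were lower and 5.84% higher. Both contrasts use the same 3 d tables. The median difference of the 15 stacks was -3.39 at 13 d and -3.35 at 31 d, and that of all stacks -1.03 and -1.66. With the median stack subtracted, 8 were lower and 0 higher at 13 d (26.5% of all stacks lower, 28.8% higher), and 6 lower and 0 higher at 31 d (19.3% lower, 23% higher). As deposited, fewer member stacks were called lower in each contrast without replicate 3 of 3 d, which left 1 table at that day. MIR25-5p had the largest differences, -6.79 (limma adjusted p = 4.9e-05) and -6.24 (0.000156), then MIR25-3p with -5.35 (0.000231) and -5.87 (0.000249). MIR106A-5p was not called in either contrast (-2.21 and -1.98, adjusted p = 0.08 and 0.109). Between 31 and 13 d 0 of 15 were called, 0 at an unadjusted p below 0.05, and of all 1078 stacks 0% were called and 116 had an unadjusted p below 0.05. The 31 d minus 13 d differences of the arm stacks ran from -0.82 for MIR19B2-3p to 0.89 for MIR92A2-3p.

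The same days differed in how many listed alignments had a ratio of 0, meaning reads in the denominator only. For MIR25 this was 4.17% of the listed alignments at 3 d, 40.7% at 13 d and 44.3% at 31 d, for MIR106B 10.4%, 27.2% and 23.8%, and for MIR93 24.1%, 42.5% and 30.8%. MIR18B had 38.5%, 66.7% and 56%. In MIR92A2 the shares were 7.02%, 21.7% and 14.5%. Over all alignments of any length the share was 80.6% and 93.1% in the 3 d tables, 77.9% to 81.9% in those of 13 d and 73.2% to 83.5% in those of 31 d, so that it was not higher at the later days. Some hairpins outside both clusters also had higher shares later: MIR486 had 15.9% at 3 d, 47.7% at 13 d and 48.6% at 31 d, and MIR19A 11.8%, 48.4% and 55.8%. Others were higher at 13 d but not at 31 d: MIR210 had 20.3%, 37.7% and 19.9%, and MIR122 25%, 40.7% and 11.1%. These alignments enter no stack, so that the values above describe only RNA found in every table. The part of read depth in these shares was not tested.

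**Figure D4:**
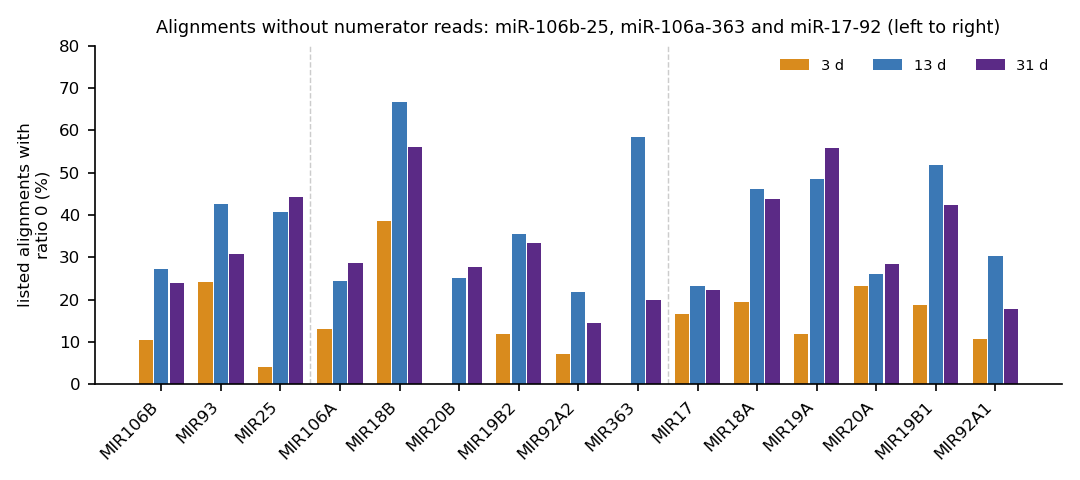
Bars give the percentage of listed 18 to 26 nt alignments with a ratio of 0, pooled over the tables of a day, for each hairpin of miR-106b-25, miR-106a-363 and miR-17-92 from left to right. At 13 d all 9 member hairpins are above their own 3 d share; MIR20B and MIR363 are at 0% at 3 d, with few alignments listed.

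Ratios also depended on alignment length. In replicate 1 of 3 d the alignments with the 5′ end of MIR92A2-3p had log2 ratios of -1.55 at 18 nt, 1.29 at 22 nt and 3.43 at 26 nt, while the median of all alignments in that table was 1.30, 0.85 and 0.41 at these lengths. In replicate 2 of 31 d MIR25-3p stood at -2.69 at 19 nt, -3.87 at 22 nt and -7.71 at 25 nt, and the median of all alignments at 0.20, -1.68 and -2.82. In replicate 2 of 13 d MIR93-5p stood at -2.38 at 20 nt and 0.54 at 25 nt, and the median of all alignments, which also rose with length there, at -0.51 and 0.32. The part of length in these values was not tested. With each alignment taken relative to the median of its length in its table, MIR25-3p was at -2.28 (13 d, limma adjusted p = 0.000501) and -2.89 (31 d, 0.000174), MIR106B-5p at -1.42 (0.0195) and -1.21 (0.0471), and MIR93-5p at -1.14 (0.0334) and -0.77 (0.142).

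**Figure D5:**
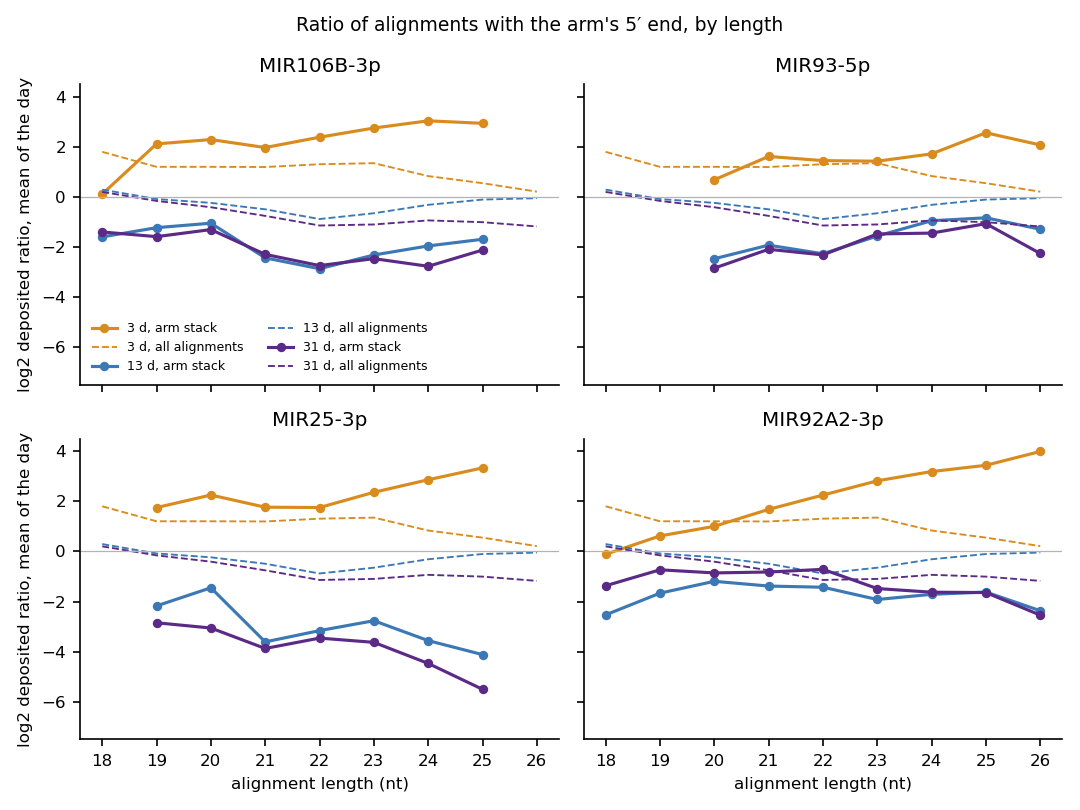
Solid lines give the log2 ratio of single alignments with the arm's 5′ end, averaged over the tables of a day, against their length in nt, and dashed lines the median of all alignments of that length averaged the same way. MIR92A2-3p climbs at 3 d from -0.11 at 18 nt, below the dashed line, to 3.45 at 25 nt, above it, and MIR25-3p lies below the dashed lines at every length shown at 13 and 31 d.

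Of the 13 stacks of the miR-17-92 list, read by the same rule, 3 were called above 1 at 3 d (22.5% of all stacks), and 6 were called below 1 at 13 d (29%) and 5 at 31 d (27.7%). After subtraction of the median stack 0 were called at 3 d (5.57% of all stacks above, 19.6% below). On that scale 6 were called below and 1 above at 13 d (28.9% of all stacks below, 21.7% above). At 31 d 4 were called below and 1 above (21.6% of all stacks below, 20.4% above). Among its lowest strands were MIR18A-5p, with the seed of miR-18b-5p, and MIR19A-3p. MIR18A-5p averaged -3.62 and -3.66 at 13 and 31 d (limma adjusted p = 0.000226 and 0.000264), and MIR19A-3p -2.50 and -4.45 (0.00345 and 5.07e-05). All 4 of these values were also called relative to the median stack. MIR19B1-3p, the copy of MIR19B2-3p, averaged -1.93 and -2.32.

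The search for the stacks most like the 3 named members left out stacks inside the hairpin windows of the clusters. It therefore cannot say whether cluster neighbours or opposite arms were more alike. Given here for each member is the most alike stack outside these windows over the 8 tables. For MIR25-3p it was a stack on the plus strand of chromosome 19, 57950479 to 57950502 (Pearson r = 0.997), for MIR93-5p one on the minus strand of chromosome 17, 57215145 to 57215170 (r = 0.998), and for MIR106B-5p one on the plus strand of the X chromosome, 49777864 to 49777887 (r = 0.992). All points share the shifts between tables, and the median r of all other stacks with these members was 0.55 to 0.58.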

How the data were processed

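The submitters' processing notes name Bowtie2 2.2.9 and the human build hg19 (GRCh37); labels add size selection on a gel to 20 to 40 nt. The 8 deposited tables list distinct alignments with the ratio of one library to the other, a linear ratio computed by the authors. The 4 other value columns per table (32 in all) carry no library name and enter no result, so no depth, counting interval or floor is given. Neither labels nor tables state the numerator. The tables are assumed to share one orientation.

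Alignments of 18 to 26 nt with a ratio above 0 in all 8 tables (11342) were grouped by strand and 5′ end. Groups of at least 3 alignments were stacks, valued per table at the median log2 ratio, with no pseudocount. They were tested with limma 3.58.1 in R 4.3.3 (1 mean per day, robust empirical Bayes, Benjamini-Hochberg over all 1078 stacks at 0.05); standard errors borrow from all stacks. Pairs of members were compared by exact two-sided sign-flip permutation over tables, and 8 tables cannot go below p = 0.00781. Fits were tested on simulated data with noise drawn separately per stack and table, without shared table shifts. Of 50 stacks changed by a log2 of -1, 0% were recovered at 3 d, 6% at 13 d and 4% at 31 d. For a change of -2 these were 44%, 64% and 66%, and for -4 they were 92%, 94% and 94%. A member that was not called may therefore have changed by such smaller amounts.

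The stack of an arm is the one at the RefSeq mature 5′ end, placed by hairpin position; for MIR93 and MIR20B it is the one with most alignments. All member arms, the miR-17-92 hairpins, the highest stack and the stacks most alike outside the member windows were named. Members and lists were chosen with earlier results of these data known. Alternatives were other centring, lengths, stack sizes, presence filters, fits and left-out pairs. Centring by length was added after seeing the data.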

Additional observations from a re-analysis of the deposited data

Results flagged for a closer look

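The log2 ratio of 9 of the 10 member arms differed between 3 d and a later day by the limma contrast of the days itself; MIR106A-5p did not pass. The differences are given as later day minus 3 d, at 13 d and then at 31 d, and share the 3 d tables. Among all 1078 stacks, the 13 d contrast called 37% as lower, with 5.38% going the other way. For the 31 d contrast these shares were 37.4% against 5.84%. Once the median stack was subtracted, the 13 d contrast called 26.5% as lower but 28.8% as higher. The 31 d contrast then had 19.3% against 23%.

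The MIR25 arms differed most, with -6.79 and -6.24 for MIR25-5p and -5.35 and -5.87 for MIR25-3p, and all 4 values passed relative to the median stack too. MIR106B-3p, at -4.36 and -4.64, passed both ways as well. MIR106B-5p differed by -3.28 and -3.35 and MIR93-5p by -3.20 and -3.35, and none of these 4 passed relative to the median stack (adjusted p = 0.0543 and 0.12, and 0.0659 and 0.125).

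MIR93-3p differed by -3.39 and -3.35, MIR92A2-3p by -4.00 and -3.11 and MIR19B2-3p by -3.13 and -3.95. Relative to the median stack the 13 d value held for MIR93-3p and MIR92A2-3p and the 31 d value for MIR19B2-3p. MIR20B-5p differed by -3.10 and -2.68, with adjusted p of 0.101 and 0.443 relative to the median stack.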

How the results depend on the processing

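Of the 10 arm stacks at 3 days each, no call changed direction under any alternative. Calls below 1 at 13 and 31 d were kept by MIR25-5p and MIR25-3p under every alternative run for them and by MIR19B2-3p at 31 d. For the other arms, calls at the later days were lost under 1 to 7 alternatives.

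The number of member stacks called at 3 d (7) was 0 with tables centred on the median of all stacks or of all alignments, with alignments centred by length and with that day fitted alone. It was 1 with presence asked of that day's tables only and 4 with at least 5 alignments per stack. The number called at 31 d (9) was 5 with at least 5 alignments per stack, where 7 member stacks remain in the test. The 13 lower at 13 d than at 3 d became 8 under either centring of tables and 7 when centred by length or with at least 5 alignments. The 13 lower at 31 d than at 3 d became 6 under either centring, 5 when centred by length and 7 with at least 5 alignments. Apart from the last setting's fewer stacks, the cause was not tested. Shares of all stacks called are given in this report only for the main fit and for centring on the median stack. The other counts here, and those below for left-out pairs and the replicate block, have no such share beside them. Whether calls over all stacks moved with them was not tested.

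Leaving out each pair in turn, 0 to 11 stacks were called at 3 d, 2 to 11 at 13 d and 3 to 10 at 31 d. Both contrasts with 3 d gave 5 to 15, and 31 d minus 13 d gave 0. With 1 table left at 3 d, it is assumed to vary like those of the other days.

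Whether same replicate numbers pair the tables is not settled. Deviations from the day mean correlated at -0.16 to 0.50 over 7 same-numbered pairs and at -0.43 to 0.41 over the others. Among same-numbered pairs, those of replicate 1 were at 0.28 to 0.50 and the rest at -0.16 to 0.12. Of the 3 tables of 13 d, 1 matched its own number at 31 d best. Deviations from a mean of 2 or 3 tables also depend on each other. With the number as a replicate block, 3 member stacks were called at 3 d, 9 at 13 d, 9 at 31 d, 13 in each contrast with 3 d and 0 between 31 and 13 d. The value columns without a library name were not used, so no limit set by depth is given.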

Other observations

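Among the miR-17-92 stacks, one of MIR17 that starts 1 base upstream of mature miR-17-5p had ratios above 1 in all 8 tables, with means of 1.72 at 3 d, 1.25 at 13 d and 1.46 at 31 d (not called as deposited, limma adjusted p = 0.0912, 0.126 and 0.0807). Relative to the median stack it was called at 13 d (1.56, adjusted p = 0.0183) and 31 d (2.16, 0.0044). The stack at the mature end averaged -0.67 and -0.87 at 13 and 31 d. This stack was chosen after its values were seen.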
